A study of Mus musculus with 4 samples.

Results

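The Slc25 genes encode the mitochondrial carrier family, and were taken here as every feature symbol made of Slc25a and a number, which gave 47 genes among 32285 measured features. Spatial transcriptomes (10x Genomics Visium, in which the RNA of a tissue section is captured on an array of barcoded spots) covered 4 sections of cryoinjured neonatal mouse hearts. Each of the 4 groups was 1 section of 10 µm from an ICR mouse whose left ventricular apex was cryoinjured on postnatal day 1 by a cooled probe held on for 5 seconds. The sections were taken 1, 4, 7 and 14 days later (d1, d4, d7 and d14), at postnatal days 2, 5, 8 and 15. All 4 hearts were injured and no uninjured section is labelled, so age and time after injury cannot be told apart. With 1 section per time point there was no replicate check and no p-value is given, and intervals cover counting error only.

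Mitochondrial carriers are small proteins, most of them in the inner membrane, that exchange nucleotides, phosphate, organic acids, amino acids, fatty acyl groups and cofactors between the cytosol and the matrix. In heart muscle the ADP/ATP carriers export the ATP made by oxidative phosphorylation, the phosphate carrier supplies its phosphate, and the aspartate/glutamate and oxoglutarate carriers bring in reducing equivalents as parts of the malate-aspartate shuttle. Slc25a4 (ANT1) is the ADP/ATP carrier isoform typical of heart and skeletal muscle, Slc25a5 (ANT2) is expressed widely and in dividing cells, and Slc25a31 (ANT4) is known from the testis.

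The results turn on the balance of Slc25a4 and Slc25a5, and their promoters are shown because the levels of these isoforms lay furthest apart on d14. Both are RefSeq sequences of 300 bases on GRCm38.p6, from 250 bases before to 50 bases after the RefSeq start, read 5′ to 3′ on the gene's strand. The GENCODE start differs from the RefSeq one, lying near the first base of the Slc25a4 window and just past the last base of the Slc25a5 window, so where a match lies relative to the transcription start is uncertain. The Slc25a4 window is chr8:46211013-46211312 on the minus strand and the Slc25a5 window is chrX:36795347-36795646 on the plus strand. Capitals mark exact matches on either strand, none of which overlap here. The motifs matched here were TATAA, the core of the TATA box, then CCAAT, then GGGCGG, the GC box, and CCGGAAG, the core bound by ETS factors.
Slc25a4: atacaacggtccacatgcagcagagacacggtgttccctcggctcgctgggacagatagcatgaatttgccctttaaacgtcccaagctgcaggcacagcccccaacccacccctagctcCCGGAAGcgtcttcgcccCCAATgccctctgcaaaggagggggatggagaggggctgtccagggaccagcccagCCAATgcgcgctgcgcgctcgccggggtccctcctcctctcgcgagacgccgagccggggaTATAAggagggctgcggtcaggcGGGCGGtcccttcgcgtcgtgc
Slc25a5: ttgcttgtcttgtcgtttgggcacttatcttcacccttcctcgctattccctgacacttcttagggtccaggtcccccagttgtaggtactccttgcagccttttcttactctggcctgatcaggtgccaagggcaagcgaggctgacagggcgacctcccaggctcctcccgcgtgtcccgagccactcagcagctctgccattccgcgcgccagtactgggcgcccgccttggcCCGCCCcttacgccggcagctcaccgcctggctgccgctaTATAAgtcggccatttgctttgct
Counted from the first base, the Slc25a4 window held CCGGAAG at 121 to 127, CCAAT at 139 to 143 and 195 to 199, TATAA at 256 to 260 and GGGCGG at 279 to 284. The Slc25a5 window held TATAA at 277 to 281 and GGGCGG, read on the other strand, at 237 to 242. GC content was 65.7% for Slc25a4 and 61% for Slc25a5, with medians of 59.3% over the 46 promoters listed for 36 of the members and 52.7% over all 32851 promoters. TATAA lay in 10.9% of the member promoters and 24.9% of all promoters. GGGCGG was in 82.6% of the member promoters and 35.7% of all, CCAAT in 47.8% and 37.4%, and CCGGAAG in 15.2% and 8.86%. Other motifs searched on both strands had no match in either window. They were CACGTG (E-box, in 17.4% of member promoters and 7.15% of all), AAGATGGC (YY1, 2.17% and 2.75%), TCAAGGTCA (ESRR, none and 0.423%) and the NRF1 palindrome (4.35% and 4.60%, among members in Slc25a3 and Slc25a31). These matches describe the letters in the windows and are not evidence of binding.

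Spots with at least 500 UMIs (unique molecular identifiers, one per captured RNA molecule) were kept, which left 445 spots on d1, 662 on d4, 774 on d7 and 1175 on d14. The matrices held 3419864, 6187656, 6358894 and 4741982 UMIs in that order, and spots were shallowest on d14, at a median of 3770 UMIs against 7810 to 8028 in the other sections. Levels are given as CPM, UMIs per 1e+06 UMIs of a section after leaving out haemoglobin and mitochondrially encoded genes. The share of mitochondrially encoded genes was 5.57% on d1, 5.17% on d4, 11.6% on d7 and 8.54% on d14. The 14 cardiomyocyte markers, all detected in every section, summed to 94082 CPM on d1, 81727 on d4, 100610 on d7 and 123390 on d14. The 7 atrial markers summed to 1467, 6924, 582 and 2637 CPM, most of it Nppa, at 1353, 6751, 494 and 2544 CPM. Myl4 and Dkk3 were also highest on d4, but Myl7 and Bmp10 were highest on d1 and Kcna5 on d14. A spot pools several cells, so fewer cells of a type and less RNA per cell cannot be told apart in any level below.

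The family as a whole was lowest on d4. Its 47 members summed to 14080 CPM on d1, 9384 on d4, 11081 on d7 and 13183 on d14, which is 1.41%, 0.938%, 1.11% and 1.32% of UMIs. Set against the cardiomyocyte markers the order was another one, with 14.97 Slc25 UMIs per 100 cardiomyocyte UMIs on d1, 11.5 on d4, 11.0 on d7 and 10.7 on d14. Against 30 nuclear-encoded respiratory chain genes the family had 26.4, 21.9, 19.8 and 24.6 UMIs per 100. By either measure the d1 section stood highest. The summed level of the cardiomyocyte markers was itself higher on d14 than on d1, so the first measure also follows the markers. Slc25a4, Slc25a3 and Slc25a5 together held 86.7%, 82.2%, 86.0% and 84.8% of the family's UMIs. A level of 20 CPM in at least 1 section was reached by 24 members, and 23 stayed under it. The number of members without a single UMI was 5 on d1, 2 on d4, 3 on d7 and 6 on d14.

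A gene was called if either section of the pair showed at least 20 CPM, its CPM differed at least 2-fold either way, and the exact 95% interval of that ratio excluded 1. On d14 against d1, 5 of 23 members met this rule, where 13.4% of all 6998 genes tested did. Slc25a34, Slc25a33 and Slc25a38 were higher, a direction taken by 7.39% of all genes, and Slc25a5 and Slc25a10 were lower, taken by 6.06%. Of this pair of sections, Slc25a33 and Slc25a38 reached 20 CPM only on d14 and Slc25a10 only on d1. These members could therefore be called only in the direction they took. With a minimum of 50 CPM, only Slc25a34 and Slc25a5 were called. On d4 against d1, 2 of 21 members met the rule, both higher and Slc25a36 among them, beside 6.17% of 7292 genes. On d7 against d1, only Slc25a42 of 21 members did, lower on d7, beside 6.49% of 6886 genes. With so few members called, the counts do not set the family apart from all genes.

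Smaller shifts were more one-sided on d4 and d7. On d4 the interval lay below 1 for 10 of 21 members and for 13.4% of all genes, and above 1 for 2 members and for 35.4% of all genes. On d7 it lay below 1 for 12 of 21 members, beside 23.6% of all genes, and above 1 for 1 member, beside 20.3%. On d14 it lay above 1 for 7 of 23 members, beside 27.1%, and below 1 for 6, beside 31.2%. The members' median log2 ratio to d1 was -0.19 on d4, -0.36 on d7 and -0.02 on d14, and that of all tested genes was 0.17, -0.03 and -0.05. It was -0.26, -0.23 and 0.11 for 13 tricarboxylic acid cycle genes, and -0.22, 0.13 and 0.12 for the 14 cardiomyocyte markers. A lower median on d4 was therefore not particular to the family. TMM scaling moved the median of all genes on d4 to -0.03 and that of the members to -0.42. A scaling factor shifts every gene of a section alike, so the gap between these medians is not a check on the scaling. TMM also moved the share of higher genes among all genes called on d4 to 57.2%, against 76.7% under CPM. CPM over all genes, mitochondrially encoded ones included, moved the d7 median of all genes to -0.14 and that of the members to -0.47, and the share of higher genes among those called to 45.7%, against 56.2%.

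**Figure D1:**
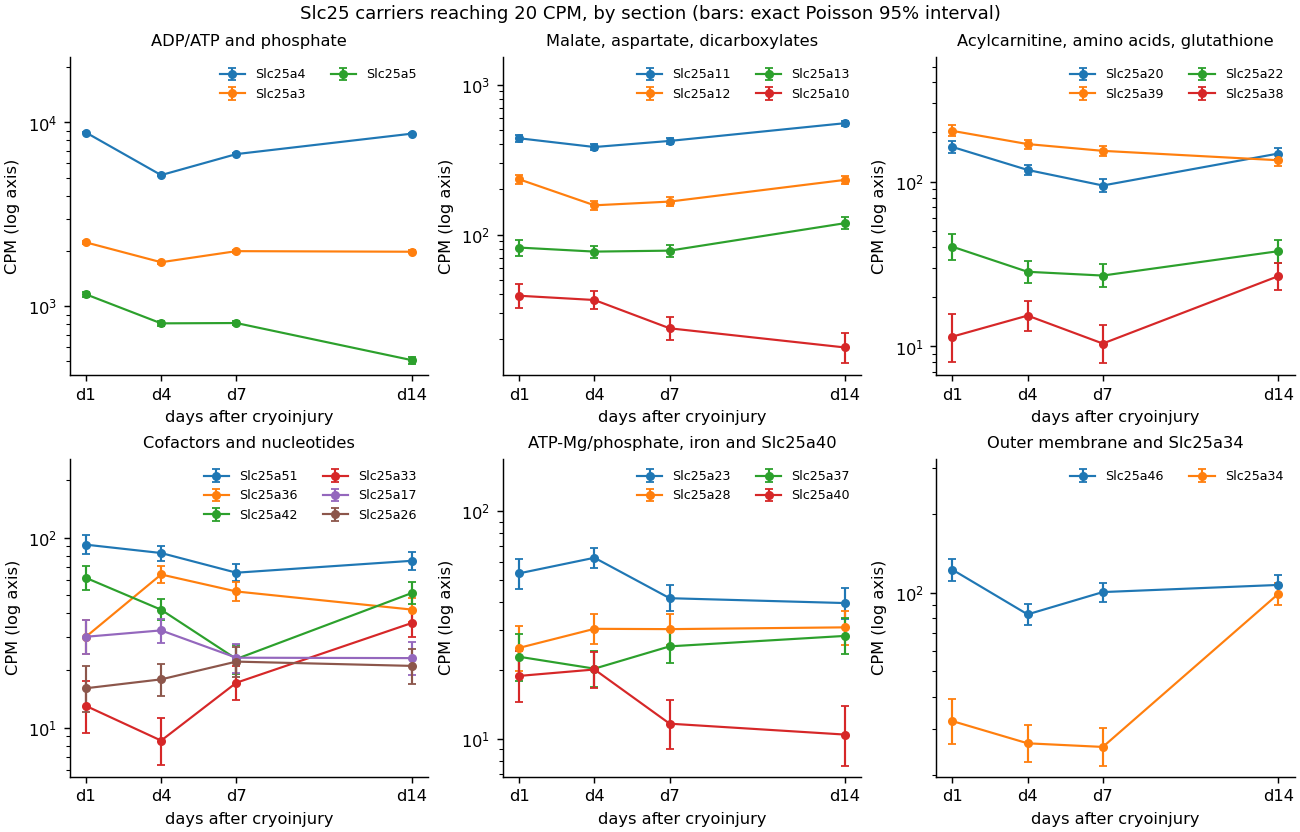
Level of 23 of the 24 Slc25 genes that reached 20 CPM, in CPM on a log axis, against days after cryoinjury, with 1 section per day; points are sections and bars are exact Poisson 95% intervals. Slc25a4 dips to 5170 CPM on d4, Slc25a5 falls away to 508 CPM on d14, and Slc25a34 stands at 99.0 CPM on d14 with 25.7 to 32.3 CPM before.

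The ADP/ATP carriers lay furthest apart on d14. Slc25a4, on chromosome 8 (46206797 to 46211284, minus strand, GRCm38), had 8816 CPM on d1, 5170 on d4, 6727 on d7 and 8691 on d14. It was lowest on d4 and close to its d1 level again on d14. Its ratio to d1 was 0.586 (0.577 to 0.596) on d4, 0.763 (0.751 to 0.775) on d7 and 0.986 (0.971 to 1.00) on d14, none past the 2-fold rule. The d14 ratio turned with the scaling, at 0.949 with CPM over all genes and 1.03 with TMM. Slc25a5, on chromosome X (36795651 to 36798807, plus strand), had 1160, 806, 810 and 508 CPM on d1, d4, d7 and d14. Unlike Slc25a4, it was lowest in the last section, where its ratio to d1 was 0.438 (0.415 to 0.462) and it was called lower. Its ratio was 0.695 on d4 and 0.698 on d7. Slc25a31 was near the detection limit, with 4, 2, 1 and 5 UMIs in whole sections.

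The Slc25a4 share of the UMIs of these 3 genes does not depend on the scaling between sections. It was 88.4% (exact Clopper-Pearson 95% interval 88.0 to 88.7) on d1, 86.5% (86.1 to 86.9) on d4, 89.3% (89.0 to 89.6) on d7 and 94.5% (94.2 to 94.7) on d14. The odds of Slc25a4 over Slc25a5 on d14 were 2.25 times those on d1 (exact 95% interval 2.13 to 2.38). On d7 the odds ratio to d1 was 1.09 (1.04 to 1.15). On d4 it was 0.844 (0.806 to 0.884). With spots thinned to 2500 UMIs each, which left out 40 shallower spots on d1, 3 on d4, 3 on d7 and 131 on d14, it was 0.978 (0.895 to 1.07), so the d4 call is lost there. The cause was not tested. The thinned shares were 87.9%, 87.7%, 89.1% and 94.7%, close to the unthinned ones. UMIs count captured 3′ ends and are not divided by length, and the 2 genes may be captured unequally, so these are shares of captured molecules.

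The shift on d14 was spread over the section. Among spots with at least 5 ADP/ATP carrier UMIs, the median Slc25a4 share was 88.9% on d1, 86.9% on d4, 89.9% on d7 and 95.1% on d14. Its lower quartile on d14 was 91.7%, above the median of each earlier section. Slc25a5 outnumbered Slc25a4 in 2 of 661 such spots on d4 and in none on d1, d7 or d14. Spots with Slc25a4 alone numbered 15 of 445 on d1, 8 of 661 on d4, 11 of 772 on d7 and 244 of 1172 on d14, where spots were also shallower. Per 100 cardiomyocyte marker UMIs, Slc25a4 had 9.37, 6.33, 6.69 and 7.04 UMIs on d1, d4, d7 and d14, and Slc25a5 had 1.23, 0.987, 0.805 and 0.412. On that scale Slc25a5 was lower in each later section, while Slc25a4 was lower than on d1 in all 3 later sections with no further decline after d4. The summed level of the markers was itself higher on d14 than on d1, so this scale also follows the markers.

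**Figure D2:**
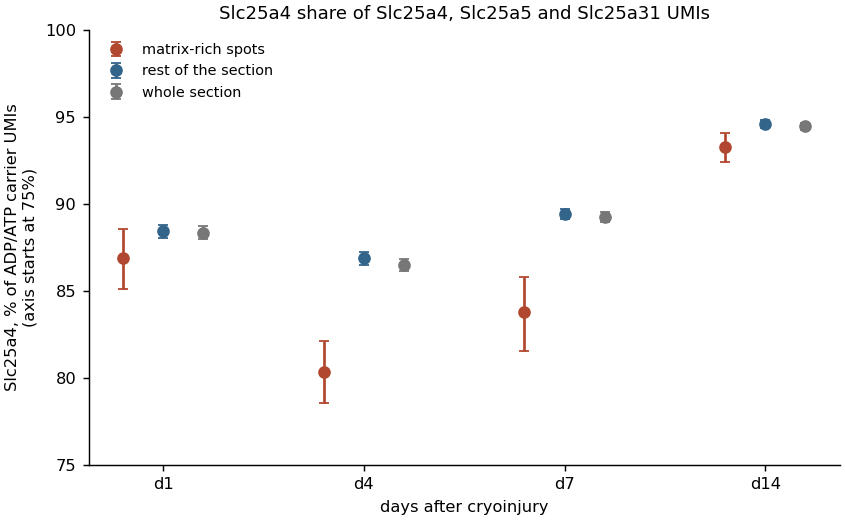
Slc25a4 as a percentage of Slc25a4, Slc25a5 and Slc25a31 UMIs (axis from 75%), by day after cryoinjury, for matrix-rich spots, the rest of the section and the whole section; bars are exact Clopper-Pearson 95% intervals. All 3 sets of spots are highest on d14, and the matrix-rich spots lie lowest on d4 (80.4%) and d7 (83.8%).

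Slc25a3, which carries phosphate into the matrix with protons (and copper, as shown for mammals), had 2224.5 CPM on d1, 1735 on d4, 1993 on d7 and 1979 on d14. Its range over the sections was narrower than that of Slc25a4, with ratios to d1 of 0.780 on d4, 0.896 on d7 and 0.889 on d14. The 15 measured ATP synthase genes, whose enzyme uses the phosphate and ADP, showed the same lowest section, with 38749 CPM on d1, 32945 on d4, 41228 on d7 and 41304 on d14. None of them was called on d4 or d7 and 1 was on d14, Atpif1, the inhibitor of the enzyme, which had 1321, 1416, 1110 and 567 CPM in time order. Their median log2 ratio was -0.24 on d4, 0.02 on d7 and 0.08 on d14. Of 30 respiratory chain genes, 1 was called on d4 (Cox7b, lower), none on d7 and 1 on d14 (Cox8a, lower), with medians of -0.26, -0.00 and 0.04. These are subunits of cytochrome c oxidase.

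The malate-aspartate carriers were higher on d14 than on d4 or d7. Slc25a11, the oxoglutarate/malate carrier, had 439, 383, 421 and 553 CPM on d1, d4, d7 and d14. Slc25a12 (aralar), the calcium-regulated aspartate/glutamate carrier of heart and brain, had 234, 157, 166 and 232 CPM. Slc25a13 (citrin), its counterpart known from liver, had 81.9, 77.0, 78.1 and 119 CPM. On d14 Slc25a11 and Slc25a13 lay above every earlier section, while Slc25a12 only came back to its d1 level. The d14 ratio to d1 was 1.26 (1.18 to 1.35) for Slc25a11, 1.46 (1.25 to 1.70) for Slc25a13 and 0.992 (0.901 to 1.09) for Slc25a12. None of these reached 2-fold. The 4 soluble enzymes of the shuttle had none called at any time, with a median log2 ratio of -0.32 on d4, -0.12 on d7 and 0.24 on d14. Mdh2, the matrix malate dehydrogenase, had 1769, 1419, 1676 and 2412 CPM, and Got1, the cytosolic aspartate transaminase, had 564, 328, 364 and 578 CPM.

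Slc25a10, the dicarboxylate carrier, followed another course. It had 39.1, 36.6, 23.7 and 17.7 CPM on d1, d4, d7 and d14, lowest in the last section. Its ratio to d1 was 0.452 (0.335 to 0.605) on d14 and it was called lower there. The citrate carrier Slc25a1 stayed low, at 5.58 to 9.70 CPM, and Slc25a21, the oxoadipate carrier, had 3 UMIs in all.

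Slc25a20, which exchanges acylcarnitines for carnitine and so feeds long-chain fatty acids to beta-oxidation, had 162.5 CPM on d1, 118 on d4, 94.8 on d7 and 148 on d14. The d7 section was lowest, with a ratio to d1 of 0.583 (0.516 to 0.660), and d14 was 1.56 (1.39 to 1.76) times d7. None of 9 tested genes of the carnitine shuttle and long-chain acyl-CoA handling was called at any time, and their medians were -0.43, -0.48 and -0.04. Among them Cpt1b, the muscle carnitine palmitoyltransferase, had 493, 360, 522 and 539 CPM, and Crat, carnitine acetyltransferase, had 825, 655, 565 and 772 CPM. Slc25a29, a carrier of basic amino acids, stayed under 20 CPM, at 5.89, 7.18, 6.11 and 16.0 CPM. Its d14 ratio to d1 was 2.72 (1.62 to 4.79) on 69 and 19 UMIs, outside the level the rule asks for. The ornithine carrier Slc25a15 had 7.36 to 14.5 CPM.

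Cofactor and nucleotide carriers included Slc25a36 and Slc25a42, called against d1 on d4 and d7. Slc25a36, a pyrimidine nucleotide carrier, had 30.1, 64.0, 52.1 and 41.8 CPM on d1, d4, d7 and d14. Every later section exceeded d1, most of all d4, with a ratio of 2.13 (1.70 to 2.69). This ratio fell under 2 with TMM, to 1.87, so its call rests on the scaling.

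Slc25a42, a carrier of coenzyme A and adenosine phosphates, went the other way on d7. It had 61.4, 41.7, 23.0 and 51.1 CPM, and was called lower on d7 with a ratio to d1 of 0.374 (0.297 to 0.470). The d14 level was 2.22 (1.78 to 2.79) times that on d7. Slc25a33, a second pyrimidine nucleotide carrier, had 13.0, 8.55, 17.2 and 35.5 CPM. It was highest on d14, at 2.73 (1.93 to 3.94) times d1, where the related Slc25a36 was at 1.39 (1.08 to 1.80) times d1. Slc25a51, the NAD carrier, varied less, with 91.8, 83.0, 65.4 and 75.5 CPM, as did the peroxisomal Slc25a17 with 30.1, 32.5, 23.3 and 23.2 CPM. Slc25a26, which imports S-adenosylmethionine, had 16.1, 18.0, 22.3 and 21.1 CPM, with intervals of every ratio to d1 that included 1. Slc25a16 lay between 14.2 and 17.4 CPM and the folate and FAD carrier Slc25a32 between 5.39 and 10.3 CPM.

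Slc25a38, which brings in glycine for the first step of haem synthesis, had 11.5, 15.4, 10.4 and 26.7 CPM on d1, d4, d7 and d14. It was called higher on d14, at 2.33 (1.59 to 3.47) times d1. In the same sections haemoglobin genes took 0.118%, 0.337%, 0.832% and 0.665% of UMIs, and the 9 measured red cell markers summed to 8.68, 16.4, 34.1 and 20.4 CPM. Both of these were highest on d7, where Slc25a38 was lowest, and their part in its level was not tested. Slc25a39, the glutathione carrier, had 203, 169, 154 and 135 CPM, and its relative Slc25a40 had 18.9, 20.2, 11.7 and 10.5 CPM. Both were lowest on d14, with ratios to d1 of 0.663 (0.592 to 0.743) for Slc25a39 and 0.553 (0.367 to 0.826) for Slc25a40. The glutamate carrier Slc25a22 had 40.3, 28.4, 26.9 and 37.9 CPM, its counterpart Slc25a18 had 7, 2, 2 and 2 UMIs, and the branched-chain amino acid carrier Slc25a44 had 12.4 to 17.2 CPM. The iron importers (mitoferrins) differed little between sections, with 22.9, 20.4, 25.5 and 28.3 CPM for Slc25a37 and 25.1, 30.4, 30.3 and 30.9 CPM for Slc25a28, and the interval of each ratio to d1 included 1.

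Slc25a34, an inner membrane carrier whose substrate is little characterised, showed the largest d14 ratio of the 23 members tested. It had 32.3 CPM on d1, 26.5 on d4, 25.7 on d7 and 99.0 on d14. The first 3 sections lay close together, and d14 was 3.07 (2.47 to 3.84) times d1 and 3.85 (3.18 to 4.69) times d7. Its UMIs were found in 20.4%, 20.1%, 15.9% and 28.7% of spots, so d14 was highest also by spots, although its spots were the shallowest. Of 23 members tested on d14 against d7, 4 were called, all higher on d14 (Slc25a34, Slc25a33, Slc25a38 and Slc25a42), beside 5.04% of all genes called higher and 8.56% called in either direction. Slc25a33 and Slc25a38 were under 20 CPM on d7, so they could be called only as higher. Members under 20 CPM in both sections were not tested. Among them, Slc25a25 was lower on d14, at 0.339 (0.213 to 0.522) times d7. Slc25a29 (2.63, 1.72 to 4.08), Slc25a35 (2.21, 1.17 to 4.28) and Slc25a14 (2.59, 1.04 to 6.98) were higher. Slc25a46, an outer membrane protein involved in mitochondrial shape, had 122.5, 82.6, 101 and 107 CPM.

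The calcium-regulated ATP-Mg/phosphate carriers had different courses. Slc25a23 had 53.3, 62.4, 41.5 and 39.5 CPM, highest on d4. Slc25a25 had 9.92, 13.5, 18.5 and 6.27 CPM, highest on d7. Slc25a24 had 14.6, 16.6, 12.4 and 9.29 CPM. None of these met the rule against d1. The uncoupling-protein-like members were low, with 8.98 to 14.6 CPM for Slc25a30, 3.05 to 5.64 for Slc25a27 and 1.44 to 4.96 for Slc25a14. Other members with at least 20 UMIs in all were Slc25a35, Slc25a45, Slc25a47 and Slc25a53, each under 7 CPM. Slc25a43, Slc25a41, Slc25a2 and Slc25a48 had at most 3 UMIs in any section, and Slc25a54 had none.

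Over the 24 members that reached 20 CPM, d1 was the highest section for 11, d14 for 7, d4 for 5 and d7 for 1. The lowest section was d4 for 8, d7 for 7, d14 for 6 and d1 for 3. By these point levels the members shared no single highest or lowest section. Some of the ranks rest on differences within counting error, such as those of Slc25a28, with 30.4, 30.3 and 30.9 CPM on d4, d7 and d14. The tally therefore does not show a separate course for each member. The family's sum followed Slc25a4, which alone held 62.6%, 55.1%, 60.7% and 65.9% of the family's UMIs.

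**Figure D3:**
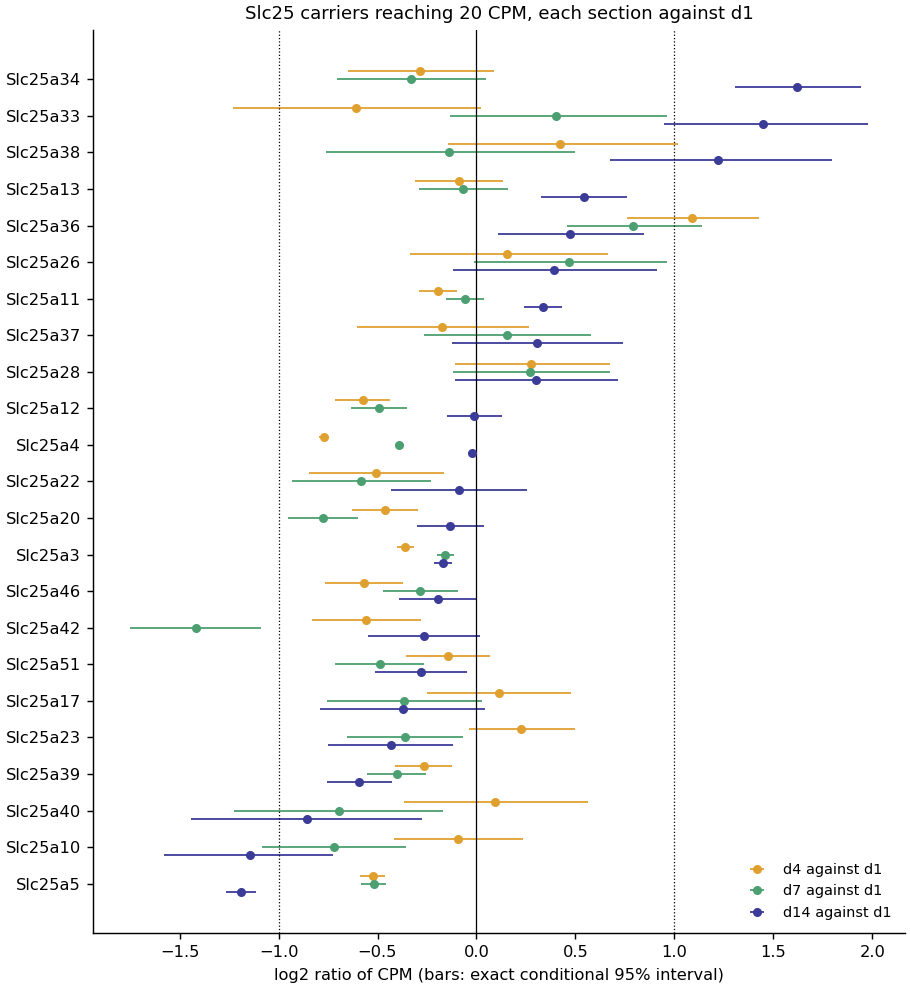
Log2 ratio of CPM of each later section to d1 for 23 of the 24 Slc25 genes that reached 20 CPM, ordered by the d14 ratio, with exact conditional 95% intervals; dotted lines mark 2-fold. Slc25a34 (3.07), Slc25a33 (2.73) and Slc25a38 (2.33) lie past 2-fold higher on d14, and Slc25a5 (0.438) and Slc25a10 (0.452) past 2-fold lower.

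Within each section, the spots richest in extracellular matrix transcripts were compared with the rest. They are the cluster, built without the Slc25 and other mitochondrial genes, with the largest UMI share of 18 matrix genes such as Col1a1, Fn1 and Postn. Positions were not used, so they are not a mapped scar. They numbered 32 of 445 spots on d1, 54 of 662 on d4, 53 of 774 on d7 and 157 of 1175 on d14, and spots of 1 section are not replicates. Cardiomyocyte markers took 6.91% of UMIs in matrix-rich spots against 9.01% in the rest on d1, 3.57% against 8.24% on d4, 3.89% against 9.13% on d7 and 8.16% against 11.7% on d14. Macrophage markers took 0.104% to 0.150% in matrix-rich spots against 0.0166% to 0.0593% in the rest. Atrial markers were higher in matrix-rich spots in every section. Their shares were 0.293% against 0.127% on d1, 1.91% against 0.499% on d4, 0.361% against 0.0309% on d7 and 0.770% against 0.154% on d14. Nppa held most UMIs of the atrial list in every section, so these shares mainly follow that gene. Skeletal muscle markers not shared with the heart took 0.0354% against 0.000955% on d7, and 37 of the 53 matrix-rich spots held none of their UMIs. On d4 the matrix-rich spots were also the deeper ones, with a median of 12803 UMIs against 7414 in the rest. The part of these differences in the results below was not tested.

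The family was lower in matrix-rich spots in all 4 sections. It summed to 10160 CPM against 14364 in the rest on d1, 5029 against 9943 on d4, 5390 against 11469 on d7 and 9182 against 13845 on d14. The ratios were 0.707 (0.677 to 0.738), 0.506 (0.488 to 0.524), 0.470 (0.449 to 0.492) and 0.663 (0.645 to 0.682) in that order. Those of the cardiomyocyte markers were 0.763, 0.418, 0.404 and 0.683, and those of the nuclear respiratory chain genes were 0.719, 0.466, 0.488 and 0.678. On d4 and d7 the family ratio lay above that of the cardiomyocyte markers, and on d1 and d14 it lay below.

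Members were called in matrix-rich spots against the rest when they had at least 20 UMIs over both and met the same fold and interval rule. On d1, 1 of 31 members was called, beside 8.50% of all 10017 genes. On d4, 9 of 37 were, beside 18.4% of 11609 genes, and 8 of these were lower, a direction taken by 7.61% of all genes. On d7, 9 of 34 were, beside 17.2% of 11206 genes, and 7 of these were lower, beside 5.51%. On d14, 2 of 36 were, beside 11.4% of 10572 genes. The members' median log2 ratio was -0.30, -0.33, -0.44 and -0.11 from d1 to d14, and that of all tested genes 0.09, 0.05, 0.20 and 0.20.

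Slc25a4 had 2368 CPM in matrix-rich spots against 5530 in the rest on d4, and 2812 against 6994 on d7. These ratios, 0.428 (0.407 to 0.451) and 0.402 (0.377 to 0.428), were past the rule, while those on d1 (0.678) and d14 (0.628) were not. The d4 ratio was 0.554 (0.534 to 0.574), not past the rule, with clusters made at resolution 0.5. Slc25a5 differed less in every section, with ratios of 0.781, 0.693, 0.658 and 0.791 from d1 to d14. Slc25a3 had 916 CPM against 2067 on d7 (0.443, 0.396 to 0.495) and ratios of 0.690, 0.508 and 0.630 on d1, d4 and d14. The malate carrier Slc25a11 was called lower on d4 (141 CPM against 415, ratio 0.341) and on d7 (205 against 436, ratio 0.470). Slc25a13 was called lower at the same times, with 24.1 against 83.8 CPM on d4 and 33.7 against 81.1 CPM on d7. Slc25a12 just missed the rule at both, with ratios of 0.546 (0.413 to 0.710) and 0.508 (0.343 to 0.727).

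Other members lower in matrix-rich spots had few UMIs there. Slc25a34 had 3 UMIs against 152 on d4 (ratio 0.154, 0.0314 to 0.458) and 3 against 140 on d7 (0.314, 0.0639 to 0.936). Slc25a26 had 4 UMIs against 101 on d4 (ratio 0.309) and none against 124 on d7, at least 2.82-fold lower at a floor of 3 counts. Slc25a42 was called lower on d4, with 19.5 CPM against 44.6 CPM. The acylcarnitine carrier Slc25a20 was called lower on d7, with 39.3 against 98.6 CPM. Slc25a27 had no UMI against 33 on d4, which at the same floor is only at least 1.41-fold lower, and on d14 it had 9 UMIs against 14 (ratio 3.89, 1.49 to 9.65). Slc25a33 was called lower on d14, with 10 UMIs against 143 (ratio 0.423, 0.199 to 0.801).

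Several d7 calls depended on the choice of spots. In the 10% of spots with the largest matrix share, the ratios of Slc25a34 (0.476), Slc25a13 (0.524), Slc25a20 (0.563), Slc25a3 (0.531), Slc25a11 (0.596) and Slc25a24 (2.06, 0.975 to 3.97) kept their direction but missed the rule. When spots with skeletal muscle UMIs were left out, Slc25a11 (0.519) and Slc25a34 (0.456, 0.0929 to 1.36) missed it, while Slc25a4, Slc25a3, Slc25a13, Slc25a20, Slc25a26, Slc25a24 and Slc25a37 were still called. Slc25a42 on d4 (0.578) and Slc25a33 on d14 (0.617, 0.290 to 1.17) missed it in the top 10% of spots.

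A few members went the other way. Slc25a24, one of the ATP-Mg/phosphate carriers, had 43.6 CPM in matrix-rich spots against 13.1 in the rest on d4, and 30.9 against 11.1 on d7. Its ratios were 3.32 (2.07 to 5.20) and 2.78 (1.31 to 5.34), on 29 and 11 UMIs in the matrix-rich spots, and on d14 its ratio was 0.864 (0.264 to 2.22). Slc25a37, which supplies iron for haem, had 56.2 against 23.4 CPM on d7 (ratio 2.40, 1.42 to 3.87). In that section haemoglobin genes took 3.36% of UMIs in matrix-rich spots against 0.668% in the rest, and whether they account for Slc25a37 was not tested. Slc25a40 was the single member called on d1, on 9 UMIs against 52 (ratio 2.39, 1.04 to 4.90). This call was lost under each of the 5 other choices of d1 spots, with ratios between 0.636 and 3.11 and intervals that included 1. Slc25a39 did not differ detectably in any section, with ratios between 0.965 and 1.07.

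**Figure D4:**
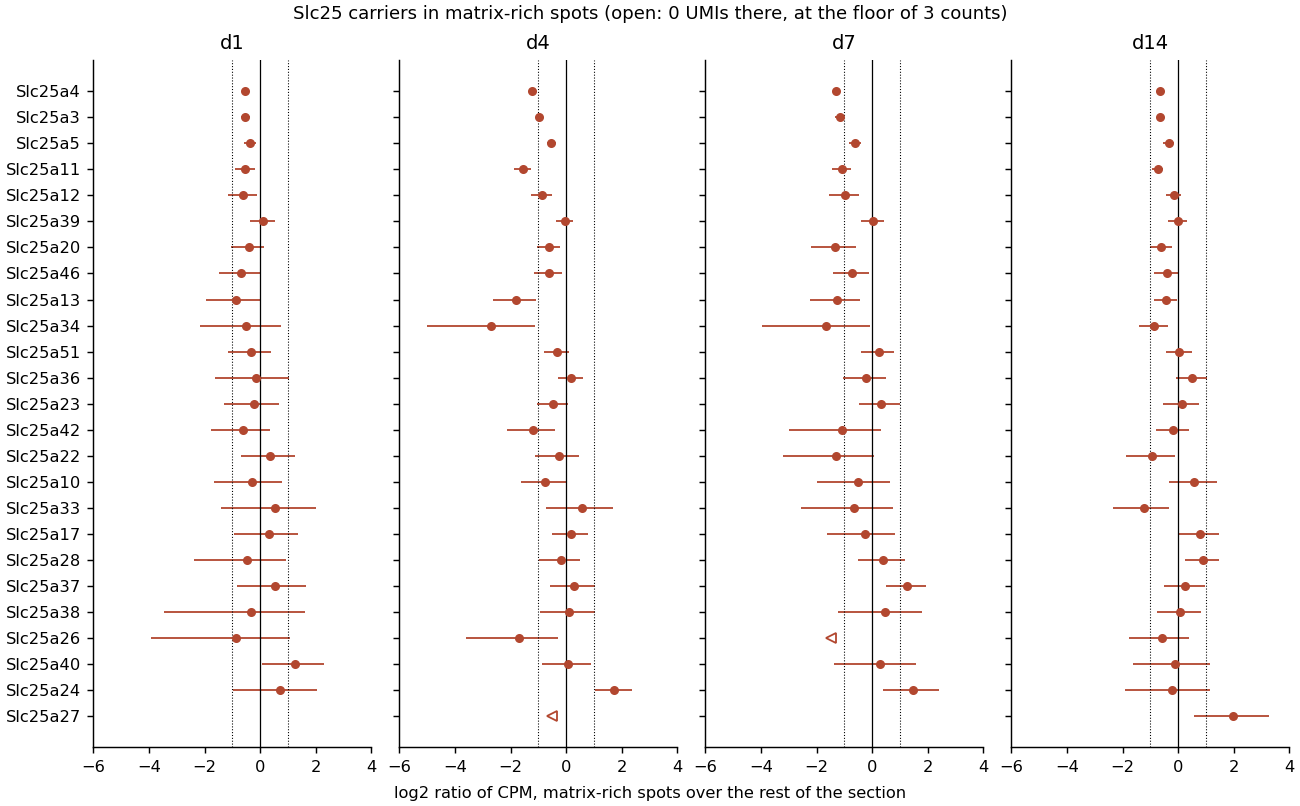
Log2 ratio of CPM in matrix-rich spots over the rest of the same section for 23 of the 24 Slc25 genes that reached 20 CPM and for Slc25a24 and Slc25a27, 1 panel per day, with exact conditional 95% intervals and dotted lines at 2-fold; open triangles have no UMI in matrix-rich spots and stand at the floor of 3 counts, and members with under 20 UMIs in a section are not drawn there. Most points lie left of 0 on d4 and d7, and Slc25a24 lies right of the 2-fold line in both.

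The isoform balance also differed within sections. Slc25a4 made up 86.9% of ADP/ATP carrier UMIs in matrix-rich spots against 88.4% in the rest on d1, 80.4% against 86.9% on d4, 83.8% against 89.4% on d7 and 93.3% against 94.6% on d14. The odds of Slc25a4 over Slc25a5 in matrix-rich spots were 0.868 (0.745 to 1.02) times those of the rest on d1, 0.618 (0.550 to 0.696) on d4, 0.611 (0.521 to 0.718) on d7 and 0.793 (0.692 to 0.912) on d14. The interval on d1 included 1. Per 100 cardiomyocyte UMIs, matrix-rich spots and the rest had nearly the same Slc25a4, 6.47 against 6.32 on d4 and 6.66 against 6.69 on d7. Slc25a5 on that scale was 1.58 against 0.955 on d4 and 1.29 against 0.791 on d7. On d4 and d7 Slc25a5 therefore stood higher per cardiomyocyte UMI in the matrix-rich spots, while Slc25a4 was nearly level. This was not particular to Slc25a5. Slc25a3 had 2.55 against 2.10 on d4 and 2.17 against 1.98 on d7, and the whole family 13.7 against 11.4 and 12.8 against 11.0. The cardiomyocyte markers were themselves lower in matrix-rich spots, so this scale also follows the markers. On d1 and d14 Slc25a4 was lower there on that scale, at 8.38 against 9.43 and 6.53 against 7.10. Per 100 respiratory chain UMIs, Slc25a4 was lower there on d4 (11.1 against 12.1) and d7 (9.96 against 12.1). Slc25a5 was higher on that measure, at 2.72 against 1.83 on d4 and 1.93 against 1.43 on d7.

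On d1 the choice of cluster mattered. A cluster of 15 other spots had almost the same matrix share, 1.44% against 1.46% in the 32 spots, and held more macrophage markers (0.407% of UMIs) and fewer cardiomyocyte markers (4.15%). In these 15 spots the family summed to 6173 CPM against 14287 in the rest of d1, a ratio of 0.432 (0.395 to 0.472). Slc25a4 made up 81.4% there against 88.4% in the rest, with an odds ratio of 0.574 (0.430 to 0.776). By the same rule 4 of 31 members were called, beside 13.1% of all genes, Slc25a24 higher (5 UMIs against 42) and Slc25a4, Slc25a3 and Slc25a12 lower. Over all clusters of a section, 6 to 8 in number, the Slc25a4 share followed the cardiomyocyte share in rank, with Spearman's rho of 0.679 on d1, 0.976 on d4, 0.929 on d7 and 1.00 on d14. Clusters of a section share its library, so these are descriptions. The lowest and highest cluster had Slc25a4 shares of 81.4% and 89.2% on d1, 80.4% and 88.2% on d4, 83.8% and 90.6% on d7, and 93.3% and 94.9% on d14. Every cluster on d14 lay above every cluster of the earlier sections.

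**Figure D5:**
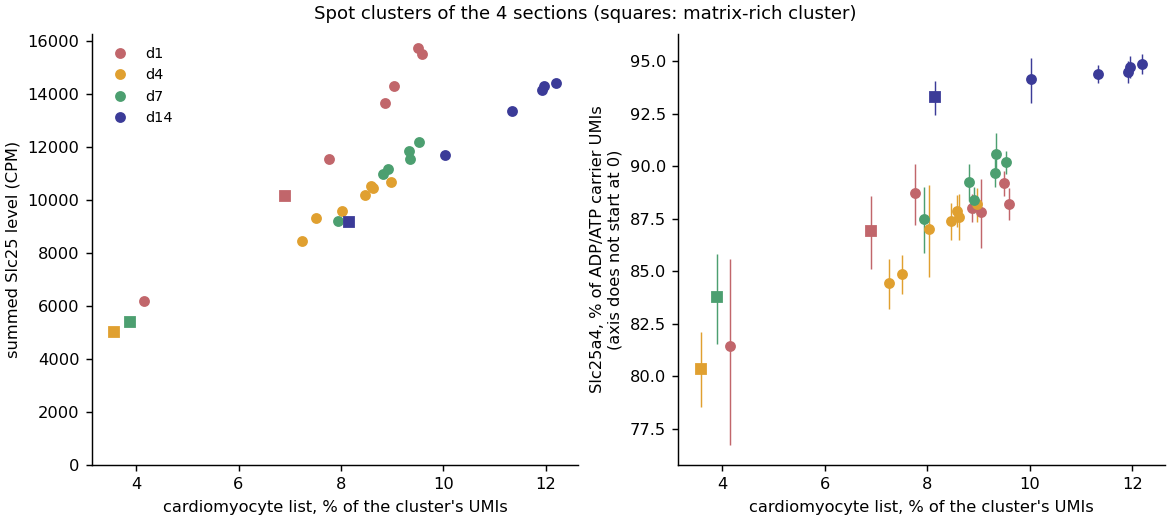
Summed Slc25 level in CPM (left) and Slc25a4 as a percentage of ADP/ATP carrier UMIs (right, axis not from 0, bars exact Clopper-Pearson 95% intervals) against the cardiomyocyte marker share of UMIs, 1 point per spot cluster; colours are sections and squares the matrix-rich clusters. All d14 clusters lie between 93.3% and 94.9%, above the highest cluster of any earlier section (90.6%).

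Lists of the oxidative pathways had more members called lower in matrix-rich spots. Of all genes, 7.61% were called lower there on d4 and 5.51% on d7. Most genes of these lists had more UMIs than most Slc25 members, which narrows their intervals. Lower in matrix-rich spots were 23 of 30 respiratory chain genes on d4 and 22 on d7, and 12 of 13 tricarboxylic acid cycle genes at both. For the carnitine and acyl-CoA genes it was 8 of 10 at both times, for ATP synthase 9 of 15 at both, and for the malate-aspartate enzymes 3 of 4 at both. The medians of log2 ratios were -1.15 and -1.09 for the respiratory chain, -1.23 and -1.24 for the cycle, and -1.76 and -1.28 for the carnitine list on d4 and d7. None of these lists had a member called on d1 or d14. Other lists differed among themselves. Of all genes, 10.8% were called higher in matrix-rich spots on d4 and 11.7% on d7. Of 12 outer membrane channel and import genes, none was called on d4 and 1 on d7, with medians of -0.48 and -0.63. Of 6 pyruvate carrier and calcium uniporter genes tested, 2 were higher and 1 lower on d4, and 1 was higher and 1 lower on d7, with medians of -0.20 and -0.18. Of 12 haem and iron-sulphur genes, 3 were lower on d4, and 1 was higher and 1 lower on d7, with medians of -0.86 and -0.33. Of 8 biogenesis regulators, 3 were lower on d4 and 2 on d7.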

How the data were processed

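Raw UMI counts of each gene in each spot were deposited by the authors. Space Ranger 1.3.0 produced them, per the file headers, with build mm10 per the submitters' processing notes, which also name Seurat 4.1.1 without a role. The rule by which spots were selected upstream is not given in the sources used here. Of 32285 features, 32158 matched GENCODE vM21 (GRCm38) by ID. Across the 4 sections, 1000 of 1328 listed barcodes occur in more than 1 section, and spots were kept apart by section. The pseudogene Slc25a5-ps on chromosome 14 is not among the features, and 10 members overlap a coding gene on the opposite strand, among them Slc25a11, Slc25a23, Slc25a25, Slc25a26 and Slc25a46. Whether the counting used strand is not given in the sources used here.

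Counts were summed over spots with at least 500 UMIs and scaled to the total of all genes other than 13 mitochondrially encoded and 10 haemoglobin genes. CPM carried exact Poisson, ratios exact conditional binomial (Clopper-Pearson) and odds ratios exact conditional 95% intervals. Precision follows depth: 1 UMI is worth 0.310 CPM on d1, 0.171 on d4, 0.180 on d7 and 0.232 on d14. Clusters were made per section with scanpy 1.11.5 and Leiden (igraph 0.11.9, resolution 0.8, 15 principal components, 15 neighbours, 2000 variable genes), leaving out 177 Slc25 and mitochondrial genes. Matrix-rich spots are the cluster, among those of 10 spots or more, in which matrix genes took most UMIs by share. Doublets do not apply to spots. Alternatives were CPM over all genes, TMM (edgeR 4.0.16), other spot and gene minimums, thinning, other resolutions and other definitions of the spots. The calling rule was tested on data simulated with counting error only, so that test says nothing on variation between sections or animals. Every member reaching 20 CPM was named in every section, others by UMIs or range, except that 1 member is counted but not reported here. The members, gene lists, thresholds and settings were chosen with earlier results of these data known.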

Additional observations from a re-analysis of the deposited data

Results flagged for a closer look

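Slc25a27, an uncoupling-protein-like carrier, differed in direction between sections when matrix-rich spots were set against the rest. On d4 it had no UMI in 54 matrix-rich spots against 33 in the rest, a ratio of 0 with an interval reaching to 0.921. On d14 it had 9 UMIs in 157 matrix-rich spots against 14 in the rest, a ratio of 3.89 (1.49 to 9.65). The difference between these ratios was not tested, and both rest on few UMIs. On d1 and d7 Slc25a27 had under 20 UMIs in all and was not compared.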

How the results depend on the processing

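Of 81 alternative values, 66 kept the direction and the side of the threshold or, for counts, stayed within 1.5 times. No odds ratio reversed, and a count cannot reverse. A count within 1.5 times can still hold other members. On d14 in the top 10% of spots, Slc25a32 was called higher in matrix-rich spots and Slc25a33 was no longer called. Against d1, the members called on d4 fell to 0 with TMM, against 2, those on d7 became 2 with no CPM minimum, against 1 (Slc25a14 was added), and those on d14 became 2 with a minimum of 50 CPM, against 5. The d4 odds ratio of Slc25a4 over Slc25a5 was 0.978 with spots thinned. In matrix-rich spots on d1, the count called, 1 in the report, was 2 at resolution 0.5, 5 at resolution 1.2, 2 in the top 10% of spots, 4 in the cluster rich in injury genes and 0 when spots with skeletal muscle UMIs were left out. Slc25a40 was called under none of these 5. Slc25a27 on d4 was lost at both other resolutions. The d1 odds ratio, 0.868 with an interval including 1, excluded 1 at 0.796, 0.573, 0.801 and 0.574 under the first 4 of these settings. On d7 the count was 5 in the top 10% of spots, against 9, of which 3 (Slc25a4, Slc25a26 and Slc25a37) were still called and Slc25a44 and Slc25a1 were added, and on d14 it was 1 with a minimum of 50 UMIs, against 2. Fewer spots or genes enter under the minimums; otherwise the cause was not tested. No paired analysis was possible because each group had 1 section. Depth limits members under 20 CPM, and d14 spots were the shallowest.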

Other observations

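Members of the carrier family with other symbols were also measured. Ucp3, the uncoupling protein of muscle, had 25.7 CPM on d1, 12.3 on d4, 8.80 on d7 and 16.0 on d14. By the 2-fold rule it was lower on d4 (ratio to d1 0.478) and d7 (0.342). Ucp2, a widely expressed relative, had 15.8, 12.1, 12.4 and 26.5 CPM and was not called. The outer membrane proteins Mtch1 and Mtch2 had 258, 370, 305 and 240 CPM and 242, 217, 195 and 192 CPM. Ucp1, the brown fat isoform, had 1 UMI in all.

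Among the regulators of mitochondrial gene expression, Ppargc1a, a coactivator of oxidative genes, had 61.1, 41.2, 44.4 and 92.2 CPM from d1 to d14. None of the 4 or 5 regulators tested in each section was called against d1, and the median log2 ratios of the list were -0.29 on d4, -0.45 on d7 and -0.32 on d14. Of the haem and iron-sulphur genes, Alas2, the first enzyme of haem synthesis in red cells, had 3.72, 8.04, 23.5 and 15.1 CPM and was the only one called, on d7. Vdac1, the main outer membrane channel, had 483, 316, 389 and 610 CPM, and Vdac2 had 656, 578, 565 and 423 CPM. The mitochondrial pyruvate carrier subunit Mpc1 had 317, 288, 415 and 509 CPM, and Mpc2 had 675, 487, 690 and 628 CPM.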
